A study of Mus musculus with 6 samples.

Results

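Voltage-gated sodium and calcium channels, hyperpolarization-activated (HCN) channels and transient receptor potential (TRP) channels were compared between ribosome-bound (IP) RNA and Input RNA of the mouse midbrain. The genes were taken by symbol: every Scn gene ending in a or b, every Cacna, Cacnb and Cacng gene, every numbered Hcn gene, and every Trpc, Trpm and Trpv gene. This gave 64 genes of 32531 gene entries, with 13 sodium channel genes, 26 calcium channel genes, 4 HCN genes and 21 TRP genes. By role, 44 encode a pore-forming subunit and 20 an auxiliary subunit. The brain sodium channel gene listed under the older symbol Scn2a1 falls outside the symbol rule and is described with the companion genes.

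The IP libraries (n = 3) hold RNA immunopurified with anti-EGFP antibodies from midbrain homogenate of the Lhx5-TRAP line DT154, and the Input libraries (n = 3) are from the same tissue and line. In this line, named for the LIM homeodomain factor Lhx5, the ribosomal protein Rpl10a is fused to EGFP so that ribosomes of tagged cells can be captured (translating ribosome affinity purification, TRAP). All mice were untreated adult controls, and both groups carry the transgene. The titles call the second group Input and another label calls it Unbound, so whether it is starting material or the fraction left after capture is not settled here. The labels do not say whether replicates came from separate animals, so p-values measure the spread between these libraries, which may be technical.

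Sodium channels open on depolarization and carry the upstroke of the action potential, and their beta subunits alter gating and anchoring. Calcium channels are built from a pore-forming alpha1 subunit, of L, P/Q, N, R or T type, with alpha2delta and beta subunits that set how much channel reaches the membrane. HCN channels open on hyperpolarization and pass the pacemaker current Ih. TRP channels are mostly non-selective cation channels gated by lipids, temperature or ligands, and the midbrain holds neurons in which sodium, calcium and HCN currents together set firing rate and pattern.

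Gene totals were 41249887 to 45841499 counts in IP and 38058239 to 41148022 counts in Input, at which 3 counts equal 0.0654 to 0.0788 CPM (counts scaled to the library total). Lhx5 itself averaged 50.6 ± 4.81 CPM (SD over 3 libraries, as for every mean here) in IP and 3.31 ± 0.963 CPM in Input. Of 6 pan-neuronal markers 5 were higher in IP, and all 6 oligodendrocyte, all 6 astrocyte, all 6 microglial and all 6 endothelial and mural markers were lower. Summed astrocyte markers stood at 111 to 166 CPM in IP and 1023 to 1368 CPM in Input, and summed oligodendrocyte markers at 290 to 430 CPM in IP and 3647 to 4331 CPM in Input. All 4 dopamine neuron markers were lower in IP, with sums of 32.2 to 48.3 CPM against 61.8 to 234 CPM in Input. All 5 cortical and hippocampal neuron markers were lower in IP, with sums of 48.3 to 83.1 CPM against 270.4 to 417 CPM in Input, and so were 5 of 6 striatal neuron markers, with sums of 92.8 to 97.2 CPM in IP. Single libraries stood apart: summed Purkinje cell markers were at 1696 CPM in IP replicate 2 and at 517 and 518 CPM in IP replicates 1 and 3, and summed striatal markers were at 1181 CPM in Input replicate 3 and at 239 and 120 CPM in Input replicates 1 and 2. The part of these markers in the channel results was not tested. In bulk RNA, fewer cells of a type and less RNA per cell cannot be told apart.

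Channel genes lay on both sides of Input. Of the 64 genes, 55 passed the filter on low counts, and they were called higher at about the share of all genes and lower at a smaller share, with no test of that difference. In edgeR (quasi-likelihood F test, p adjusted by Benjamini-Hochberg over 17197 genes, threshold 0.05), 14 of the 55 were higher in IP (25.5%), against 26.0% of all genes tested. A further 11 were lower in IP (20%), against 27.9% of all genes, and 30 were called in neither direction. Of the 11 lower genes, Cacna1f and Cacng1 had under 10 counts in every IP library and passed the filter only through Input. The 25 called genes compare with 53.9% of all genes called in either direction. The median log2 fold change (IP over Input) was 0.07 for the channel genes and -0.01 for all genes. The median of the channel genes turned negative on leaving out IP replicate 1 (-0.06), IP replicate 2 (-0.09) or Input replicate 1 (-0.03), and reached 0.17 on leaving out IP replicate 3. Upper-quartile scaling gave -0.08 and scaling by totals gave -0.06. For a change over 2-fold (edgeR's glmTreat), 0 channel genes were called higher, against 2.25% of all genes, and Trpc6, Trpm3 and Cacna2d4 were called lower, against 12.9% of all genes. At an unadjusted p under 0.05 that count of higher genes was 1. In the fit with no fold requirement, 6 further genes had an unadjusted p under 0.05 without being called, among them Cacna1d, Cacna2d3, Cacnb1 and Trpv6. DESeq2 called 16 higher and 12 lower.

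The 3 IP libraries stood above all 3 Input libraries for 17 of the 55 genes (30.7% of all genes tested did so) and below them for 14 (32.8% of all genes). All 25 called genes were among these 31. The other 6, which were not called, were Cacnb1, Trpm8 and Trpv6 above and Scn9a, Cacna1c and Cacna1d below. Upper-quartile scaling moved the median of all genes by -0.15 and scaling by library totals by -0.14. Of the called channel genes, 56% were higher in IP under the main scaling (48.2% of all called genes). Under upper-quartile scaling this share was 40.7% (38.1% of all called genes), and it was 44% when scaled by totals (39.2% of all called genes). Leaving out IP replicate 3 or Input replicate 1 gave 7 lower genes, and leaving out Input replicate 3 gave 6.

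**Figure D1:**
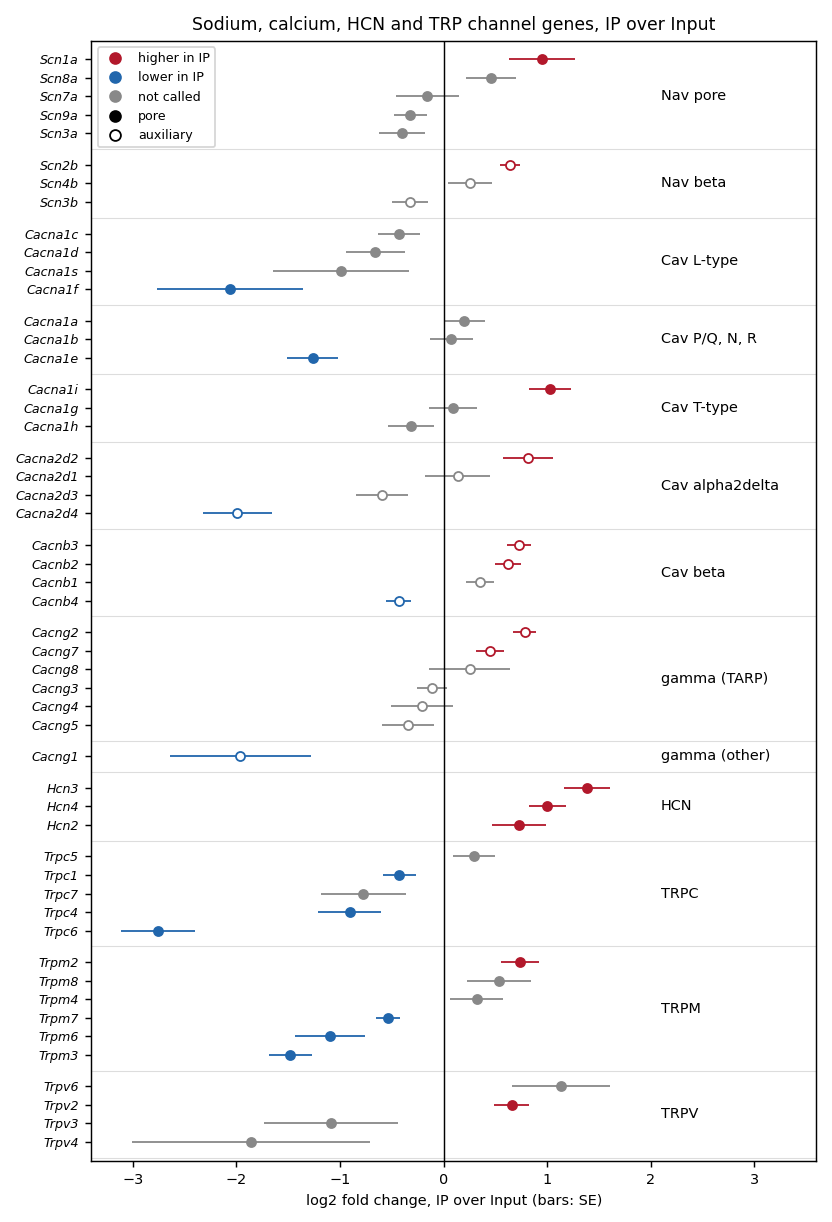
Log2 fold change (IP over Input) of 51 of the 55 tested channel genes on the horizontal axis, grouped by subfamily from top to bottom, with bars for the SE. Red points were higher in IP, blue points lower and grey points not called, and open symbols mark auxiliary subunits. Hcn2, Hcn3 and Hcn4 lie right of zero at 0.73 to 1.39, and Trpc6 lies farthest left at -2.76.

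The counts by class stand beside 26.0% higher and 27.9% lower of all genes tested, with no test of any difference. The share higher was 30% of tested sodium, 24% of calcium, 75% of HCN and 12.5% of TRP genes. The share lower was 0%, 20%, 0% and 37.5% in the same order. Among pore genes 19.4% were higher and 22.2% lower, and among auxiliary genes 36.8% and 15.8%. Of 10 tested sodium channel genes 3 were higher and 0 lower (median 0.36), and the count of lower genes was also 0 at an unadjusted p under 0.05 and in DESeq2. Of 25 tested calcium channel genes 6 were higher and 5 lower (median -0.11). The 5 lower genes include Cacna1f and Cacng1, which passed the filter only through Input. Of 4 HCN genes 3 were higher and 0 lower (median 0.91), and the count of lower genes was again 0 by either of those measures. Of 16 tested TRP genes 2 were higher and 6 lower (median -0.48). By role, 7 of 36 tested pore genes were higher and 8 lower (median -0.15), and 7 of 19 tested auxiliary genes were higher and 3 lower (median 0.25). The pore median was 0.10 after an adjustment for transcript length and 0.04 without IP replicate 3, with -0.29 as the lowest value on leaving out 1 library. For calcium channel genes the median turned to 0.03 when IP replicate 3 was left out, and leaving out Input replicate 2 gave -0.18. The TRP median was -0.29 without Input replicate 3 and stayed negative on leaving out any single library. Leaving out IP replicate 1 gave an auxiliary median of -0.02, and leaving out Input replicate 3 gave 0.01.

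These counts rest in part on single libraries. The count of lower calcium channel genes was 3 without IP replicate 1, Input replicate 1 or Input replicate 3. The count of lower TRP genes was 3 without IP replicate 3 or Input replicate 3. Lower pore genes numbered 5 on leaving out IP replicate 3 or Input replicate 1, and 4 on leaving out Input replicate 3. Without IP replicate 3, 5 sodium channel genes were higher, and without IP replicate 1 a single one, Scn3b, was lower. The sodium median was 0.09 without Input replicate 2. Over all genes, leaving out 1 library gave 3721 to 4384 higher and 4164 to 4783 lower. With every library, 4467 were higher and 4794 lower.

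The 9 untested genes were near zero in every library, with at most 19 counts each. They were the skeletal muscle sodium channel gene Scn4a, the sensory neuron sodium channel genes Scn10a and Scn11a, Cacng6, Trpc2, Trpm1, Trpm5, Trpv1 and Trpv5. Trpc2 had 0 counts in all 6 libraries, and 100% of its annotated exon bases are shared with Xndc1 and Xntrpc on the same strand, so that reads there could be left out as ambiguous. Another 5 genes were tested at a mean under 1 CPM in both groups: Cacna1s, Cacna1f, Cacng1, Trpv3 and Trpv4.

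All genes tested gave 26.0% higher and 27.9% lower. Among sodium channel pore genes 1 of 6 tested was higher in IP and 0 were lower (also 0 at an unadjusted p under 0.05 and in DESeq2). It was Scn1a, which encodes Nav1.1, a channel prominent in fast-spiking inhibitory neurons. Scn1a (chromosome 2, 66270778 to 66440840, minus strand, mm10) had 694, 599 and 401 CPM in the IP libraries, against 367, 349 and 158 CPM in the Input libraries. Every IP library was above every Input library, and replicate 3 was the lowest of each group. The log2 fold change was 0.95 (SE 0.32, adjusted p 0.0321). The call was lost without IP replicate 1 (adjusted p 0.0986), IP replicate 2 (adjusted p 0.115) or Input replicate 3 (adjusted p 0.0510), and with upper-quartile scaling (adjusted p 0.0554).

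The other 5 tested sodium channel pore genes were not called. Scn8a, the gene of Nav1.6 at the axon initial segment, averaged 443 ± 113 CPM in IP and 322 ± 87.0 CPM in Input (log2 fold change 0.46, SE 0.24, adjusted p 0.140). With same-numbered libraries as a block Scn8a was called higher (adjusted p 0.00783), and it was called without IP replicate 3 (adjusted p 0.0447). The embryonic-type gene Scn3a, the sensory and hypothalamic gene Scn9a and the atypical gene Scn7a had log2 fold changes of -0.40, -0.32 and -0.16. Scn2a1, the gene of Nav1.2, averaged 258 ± 82.9 CPM in IP and 226 ± 12 CPM in Input (adjusted p 0.486), and was called higher without IP replicate 3 (adjusted p 0.00797).

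Among sodium channel beta genes, Scn2b, which encodes beta2, the subunit disulfide-linked to the pore, had 289, 301 and 300 CPM in IP, against 182, 197 and 192 CPM in Input. Its libraries varied little within each group, and its log2 fold change was 0.64 (SE 0.095, adjusted p 0.000777). Scn2b was called in all 15 alternative fits. Scn3b and Scn4b stood at -0.32 and 0.26 and were not called. Scn4b, which is rich in striatal neurons, had 63.9, 49.9 and 88.1 CPM in Input replicates 1, 2 and 3, the highest being the library with the highest striatal marker sum. Scn3b was called lower without IP replicate 1 (adjusted p 0.0364).

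All 4 L-type calcium channel pore genes had negative log2 fold changes, and of these only Cacna1f passed the test. Cacna1c, which encodes Cav1.2 and was the L-type gene with the most reads, had 71.2, 65.7 and 39.3 CPM in IP, against 81.1, 79.2 and 77.0 CPM in Input. The groups did not overlap, with IP replicate 3 far under the other libraries, and the log2 fold change was -0.43 (SE 0.20, adjusted p 0.104). With same-numbered libraries as a block Cacna1c was called lower (adjusted p 0.0430), as it was with upper-quartile scaling (adjusted p 0.0370), whereas it stood at 0.15 after the length adjustment. Cacna1d, which encodes Cav1.3, the L-type channel tied to pacemaking in dopamine neurons, averaged 21.1 ± 8.59 CPM in IP and 33.3 ± 4.07 CPM in Input (log2 fold change -0.66, adjusted p 0.0816). Cacna1d was called lower with the block (adjusted p 0.0277) and without IP replicate 2 (adjusted p 0.0406).

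The retinal L-type gene Cacna1f had 4, 2 and 7 counts in IP, against 28, 11 and 16 counts in Input, which is 0.0955, 0.0488 and 0.163 CPM in IP and 0.673, 0.252 and 0.395 CPM in Input. Its log2 fold change was -2.06 (SE 0.70, adjusted p 0.0351) on these few reads. No IP library reached the filter's 10 counts, so Cacna1f was tested only because of its Input libraries. The call was lost when IP replicate 1 or 2, or Input replicate 1 or 3, was left out (adjusted p 0.0688 to 0.158) and with the block (adjusted p 0.0621). The skeletal muscle gene Cacna1s, at 0.367 CPM in IP and 0.733 CPM in Input, was not called, and 19.98% of its exon bases lie over Gm37759 on the opposite strand.

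Among the channels that serve transmitter release, the R-type gene stood apart from the P/Q-type and N-type genes. Cacna1e (chromosome 1, 154390731 to 154884501, minus strand), which encodes the R-type Cav2.3, had 81.7, 83.0 and 43.3 CPM in IP, against 137, 180 and 182 CPM in Input. The highest IP library was below the lowest Input library. The log2 fold change was -1.26 (SE 0.24, adjusted p 0.00273), and it was called in all 15 alternative fits, at -0.60 after the length adjustment. Cacna1a, the P/Q-type gene, averaged 68.0 ± 15.2 CPM in IP and 59.1 ± 11.1 CPM in Input (log2 fold change 0.20, adjusted p 0.417). Cacna1b, the N-type gene, averaged 111 ± 31.9 CPM in IP and 105 ± 10.9 CPM in Input (log2 fold change 0.07, adjusted p 0.781). Neither was called, and whether Cacna1e differed from them was not tested.

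T-type genes, whose low-threshold channels support rebound bursts, also divided. Cacna1i (chromosome 15, 80287238 to 80398279, plus strand), which encodes Cav3.3, had 63.8, 53.0 and 41.5 CPM in IP, against 24.7, 32.1 and 20.9 CPM in Input. All IP libraries were above all Input libraries, with a log2 change of 1.03 (SE 0.20, adjusted p 0.00313), and it was called in all 15 alternative fits. Cacna1g, which encodes Cav3.1, had 58.6, 60.1 and 34.3 CPM in IP, against 57.0, 48.9 and 38.0 CPM in Input. The groups overlapped and Cacna1g was not called (log2 fold change 0.09, SE 0.23, adjusted p 0.765). Cacna1h, the gene of Cav3.2, stood at -0.31 (adjusted p 0.250).

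**Figure D2:**
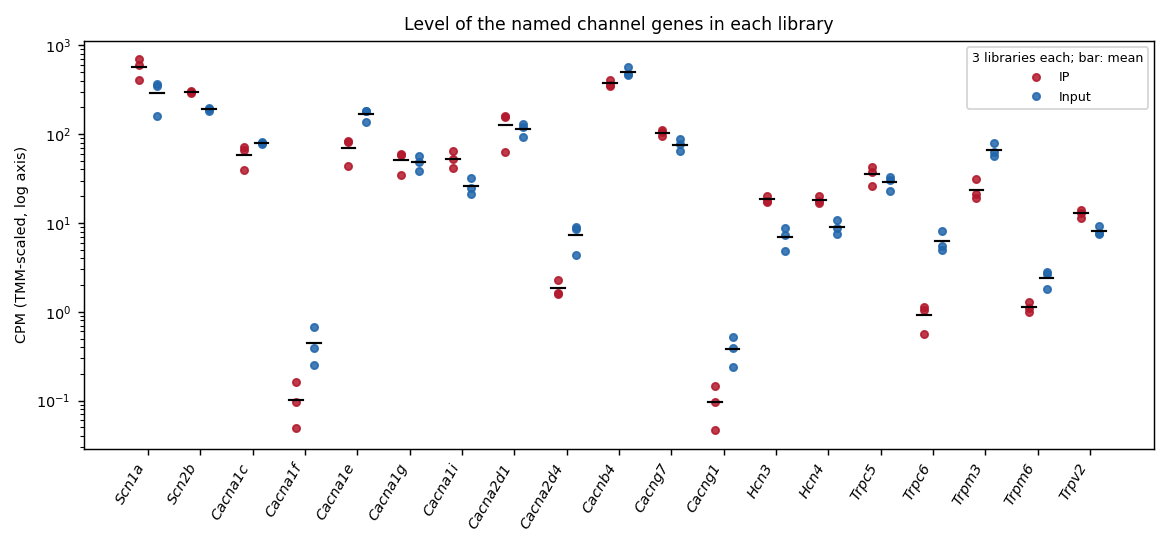
Level of 19 channel genes in each library, in CPM on a log axis, with IP points left of Input points and a bar at the mean of 3 libraries. Hcn3, Hcn4 and Scn2b show all IP points above all Input points, Trpc6, Trpm3 and Cacna2d4 show the reverse, and the groups overlap for Cacna1g.

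Of 15 tested auxiliary calcium channel genes, 5 were higher (33.3%) and 3 lower (20%) in IP. All genes tested gave 26.0% higher and 27.9% lower. Of the alpha2delta genes, which encode the extracellular subunits that in the case of Cacna2d1 and Cacna2d2 bind gabapentin, Cacna2d2 was higher and Cacna2d4 lower. Cacna2d4 (chromosome 6, 119236526 to 119352407, plus strand), known for its role in photoreceptors, had 1.58, 1.64 and 2.29 CPM in IP, against 8.58, 4.35 and 8.96 CPM in Input. The groups did not overlap, and the log2 fold change of -1.99 (SE 0.33, adjusted p 0.00138) was called in all 15 alternative fits. Cacna2d2 averaged 142 ± 46.8 CPM in IP and 80.3 ± 14.5 CPM in Input, a log2 change of 0.82 (SE 0.24, adjusted p 0.0197). That call was lost when IP replicate 1 or 2, or Input replicate 2 or 3, was left out (adjusted p 0.0518 to 0.0779).

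Cacna2d1, an alpha2delta gene, had 156, 158 and 62.3 CPM in IP, against 120, 128 and 93.7 CPM in Input. IP replicate 3 was the lowest of all 6 libraries and the groups overlapped (log2 fold change 0.14, SE 0.31, adjusted p 0.735). Without IP replicate 3 Cacna2d1 was called higher (adjusted p 0.0290). Cacna2d3 stood at -0.59 (adjusted p 0.0766) and was called lower without IP replicate 1 (adjusted p 0.0227). Per exon length, Cacna2d2 made up 57.9% ± 4.65 of the summed alpha2delta level in IP and 40.8% ± 3.61 of it in Input. Per coding length its share was 48.1% ± 5.15 in IP and 32.5% ± 2.86 in Input.

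Calcium channel beta genes, whose cytoplasmic proteins bind the alpha1 pore and aid its trafficking, gave 2 higher and 1 lower of 4. The shares over all genes tested were 26.0% higher and 27.9% lower. Cacnb4 had 360, 410 and 343 CPM in IP, against 471, 468 and 563 CPM in Input. Every IP library was below every Input library, and the log2 fold change was -0.43 (SE 0.12, adjusted p 0.0153). The call was lost without IP replicate 1 (adjusted p 0.0622) and after the length adjustment (log2 fold change -0.20, adjusted p 0.185), and 16.0% of its exon bases lie over A430018G15Rik on the opposite strand. Cacnb2 and Cacnb3 were higher, at 0.62 (SE 0.13, adjusted p 0.00345) and 0.73 (SE 0.12, adjusted p 0.00115), and both were called in all 15 alternative fits. Cacnb1 stood at 0.35 (SE 0.14, adjusted p 0.0570), with all IP libraries above all Input libraries, and it was called with the block (adjusted p 0.0408) and without Input replicate 3 (adjusted p 0.0152). Cacnb4 took 43.9% ± 3.56 of the summed beta level per exon length in IP, against 61.7% ± 0.357 in Input, and 54.0% ± 3.79 against 70.9% ± 0.154 per coding length. It was the largest share in every library by either length.

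Gamma genes of the TARP group, which are best known for carrying AMPA receptors to the synapse, gave 2 higher and 0 lower of 6 (also 0 lower at an unadjusted p under 0.05 and in DESeq2). The shares over all genes tested were 26.0% higher and 27.9% lower. Cacng7 had 106, 95.0 and 110 CPM in IP, against 86.9, 77.7 and 63.8 CPM in Input. The groups did not overlap, with a log2 change of 0.45 (SE 0.14, adjusted p 0.0228). That call was lost without IP replicate 1 or without Input replicate 2 or 3 (adjusted p 0.0584 to 0.0589), with upper-quartile scaling (adjusted p 0.0935) and after the length adjustment (adjusted p 0.337). Cacng2, the stargazin gene, averaged 94.4 ± 8.32 CPM in IP and 54.9 ± 3.62 CPM in Input, and its log2 fold change of 0.78 (SE 0.11, adjusted p 0.000741) was called in all 15 alternative fits. Cacng3, Cacng4, Cacng5 and Cacng8 ranged over log2 fold changes of -0.34 to 0.25 and were not called. Cacng1, the skeletal muscle gamma gene, had 4, 6 and 2 counts in IP, against 10, 17 and 21 counts in Input (log2 fold change -1.96, SE 0.68, adjusted p 0.0372). It too passed the filter only through Input. Cacng1 lost its call with the block (adjusted p 0.0910) and on leaving out any single library other than IP replicate 2 (adjusted p 0.0589 to 0.134).

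The HCN family was the class with the highest median log2 fold change, and the log2 fold changes of Hcn2, Hcn3 and Hcn4 were positive in every alternative fit, between 0.43 and 1.59. Hcn3 (chromosome 3, 89146074 to 89160196, minus strand) had 20.3, 17.04 and 17.8 CPM in IP, against 8.80, 7.36 and 4.89 CPM in Input. The groups were well apart, and its log2 fold change of 1.39 (SE 0.22, adjusted p 0.00115) was the highest of the 55 genes. Exons of Pklr on the opposite strand cover 17.1% of the Hcn3 exon bases, and the strand setting of the counting is not given, so reads of the pair cannot be told apart there.

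Hcn4, the slowest of the family and the main sinoatrial pacemaker channel, had 19.9, 17.6 and 16.7 CPM in IP, against 10.8, 8.69 and 7.50 CPM in Input. Its log2 fold change was 1.003 (SE 0.18, adjusted p 0.00181), with no overlap between the groups. Hcn3 and Hcn4 were called in all 15 alternative fits. Hcn2, a brain pacemaker channel strongly shifted by cyclic AMP, averaged 46.7 ± 4.35 CPM in IP and 28.1 ± 10.3 CPM in Input (log2 fold change 0.73, SE 0.26, adjusted p 0.0403). Hcn2 was called in only 5 of the 15 alternative fits. It lost its call with the block (adjusted p 0.0514), upper-quartile scaling (adjusted p 0.0828) and library totals (adjusted p 0.0742). The call was also lost with a minimum count of 50, with no filter (both adjusted p 0.0520) and after the length adjustment (adjusted p 0.0978). So it was when any 1 IP library or Input replicate 2 was left out (adjusted p 0.0560 to 0.0954).

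Hcn2, Hcn3 and Hcn4 were each lowest of the Input group in Input replicate 3, the library that also had the lowest dopamine marker sum and the highest striatal marker sum, and the part of this in the result was not tested. Without Input replicate 3 and IP replicate 2 together the HCN median was 0.66, with 3 genes called higher. Hcn2 took 48.96% ± 6.81 of the summed HCN level per exon length in IP and 53.0% ± 2.64 in Input, and 22.3% ± 6.44 per coding length in IP and 23.5% ± 2.51 in Input.

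Sequence upstream of the start is shown for Hcn2 and Hcn4, which were both higher in IP and differ in their matches to the motif searched, as 100 bases of RefSeq promoter sequence (GRCm38.p6, plus strand, chr10:79716534-79716633 and chr9:58822849-58822948). Capitals mark the GC box GGGCGG or its reverse complement CCGCCC, searched on both strands.
Hcn2: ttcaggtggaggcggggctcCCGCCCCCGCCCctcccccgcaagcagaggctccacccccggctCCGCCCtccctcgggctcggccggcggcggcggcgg
Hcn4: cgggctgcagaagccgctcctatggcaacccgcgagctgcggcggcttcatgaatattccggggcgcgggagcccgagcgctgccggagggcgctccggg
The Hcn2 window holds 3 matches and the Hcn4 window holds 0. Of all 32851 promoters, 24.7% held a match in the same window, as did 26.6% of the 64 promoters found for 50 of the channel genes, 37.5% of 16 promoters of genes higher in IP and 33.3% of 12 promoters of genes lower in IP. A match is a description of these letters and not a binding site.

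Trpc6 had the lowest log2 fold change of the 55 genes. In the TRPC group, whose channels follow receptors coupled to phospholipase C, 3 of 6 genes were lower and 0 higher (also 0 at an unadjusted p under 0.05 and in DESeq2). All genes tested gave 27.9% lower and 26.0% higher. Trpc6 (chromosome 9, 8544142 to 8680741, plus strand), a diacylglycerol-gated channel, had 1.12, 0.561 and 1.05 CPM in IP, against 5.48, 8.16 and 4.91 CPM in Input. The lowest Input library was well above the highest IP library. The log2 fold change was -2.76 (SE 0.36, adjusted p 0.000422), it was also called for a change over 2-fold (adjusted p 0.00333), and the call held in all 15 alternative fits. Trpc1 and Trpc4 were lower at -0.43 (SE 0.16, adjusted p 0.0474) and -0.91 (SE 0.30, adjusted p 0.0315). Trpc1 lost its call on leaving out any single library other than IP replicate 1 (adjusted p 0.0810 to 0.113), and Trpc4 without IP replicate 3 or without Input replicate 2 or 3 (adjusted p 0.0771 to 0.0989).

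Trpc5 had 37.5, 42.3 and 26.3 CPM in IP, against 30.2, 33.2 and 23.1 CPM in Input. The groups overlapped and it was not called (log2 fold change 0.29, SE 0.20, adjusted p 0.253), except without IP replicate 3 (adjusted p 0.0493).

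In the TRPM group 3 of 6 genes were lower and 1 was higher, against 27.9% lower and 26.0% higher of all genes tested. Trpm3 (chromosome 19, 22139046 to 22995410, plus strand), a steroid- and heat-sensitive channel that is also abundant in choroid plexus, had 30.9, 20.9 and 19.3 CPM in IP, against 62.3, 56.1 and 79.9 CPM in Input. The groups did not overlap, with a log2 change of -1.48 (SE 0.21, adjusted p 0.000645), and the call held in all 15 alternative fits, at -0.82 after the length adjustment. The 6 choroid plexus and ependyma markers, of which 5 were tested and 2 were lower, summed to 37.0, 12.7 and 20.1 CPM in IP and to 374, 23.6 and 1362 CPM in Input. The part of these markers in the Trpm3 result was not tested. Trpv4, which is also expressed in choroid plexus, had 0.549, 0.220 and 0.0233 CPM in IP, against 1.39, 0.0458 and 1.46 CPM in Input, with the low Input value in the library with the lowest choroid sum (log2 fold change -1.86, SE 1.15, adjusted p 0.203).

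Trpm6, a magnesium-permeable channel with a kinase domain, had 1.10, 1.29 and 1.003 CPM in IP, against 2.81, 1.79 and 2.66 CPM in Input. All IP libraries were under all Input libraries, and the log2 fold change was -1.10 (SE 0.34, adjusted p 0.0246). Its call was lost with the block (adjusted p 0.0505) and when IP replicate 1 or 3, or Input replicate 1 or 3, was left out (adjusted p 0.0556 to 0.0976). Trpm7, its widely expressed relative, was lower at -0.54 (SE 0.12, adjusted p 0.00466), and not after the length adjustment (log2 fold change -0.22, adjusted p 0.131). Trpm2, an oxidant-sensitive channel gated by ADP-ribose, was higher, with 30.02 ± 3.01 CPM in IP and 18.0 ± 4.27 CPM in Input (log2 fold change 0.74, SE 0.18, adjusted p 0.00895). Trpm4 and Trpm8 stood at 0.32 and 0.54 and were not called.

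Of 4 tested TRPV genes, Trpv2 was higher and the others were not called. Trpv2 had 14.1, 12.99 and 11.3 CPM in IP, against 9.18, 7.45 and 7.67 CPM in Input. All IP libraries were above all Input libraries, with a log2 change of 0.66 (SE 0.17, adjusted p 0.0107). Trpm2 and Trpv2 lost their calls only without IP replicate 2 and Input replicate 3 together (adjusted p 0.0516 and 0.0888). Trpv6 stood at 1.13 (SE 0.47, adjusted p 0.0724) with no overlap between groups at 1.46 ± 0.0843 CPM in IP and 0.660 ± 0.314 CPM in Input. Trpv3, at 0.349 CPM in IP and 0.747 CPM in Input, was not called, except without IP replicate 1 (adjusted p 0.0426).

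Partners of these channels were read from a list of 30 companion genes, of which 27 were tested, 8 were higher, 6 were lower and 13 were called in neither direction (median 0.29), against 26.0% higher and 27.9% lower of all genes tested. The list was drawn up with results of these data known. Pex5l, which encodes TRIP8b, the protein that controls HCN trafficking, was lower, while 3 of the 4 HCN genes were called higher. It had 69.1, 44.2 and 63.8 CPM in IP, against 227, 189 and 159 CPM in Input, with no overlap (log2 fold change -1.70, SE 0.20, adjusted p 0.000242). The sodium leak channel NALCN and its partners also divided: Nalcn (0.88, adjusted p 0.0230), Unc80 (0.49, adjusted p 0.00774) and Fam155a (0.98, adjusted p 0.000288) were higher, and Unc79 was lower (-1.13, SE 0.10, adjusted p 7.74e-05). Unc79 had 53.2, 59.4 and 52.9 CPM in IP, against 121, 121 and 120 CPM in Input. The Nalcn groups overlapped, with IP replicate 3 at 77.1 CPM and Input replicates 1 and 2 at 79.2 and 78.3 CPM. Nalcn lost its call on leaving out any single library other than IP replicate 3 (adjusted p 0.0507 to 0.107).

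The intracellular FGF genes, which encode proteins that bind sodium channel C-termini, gave 3 of 4 higher. Fgf11 had 144, 127 and 200 CPM in IP, against 64.3, 54.1 and 47.0 CPM in Input, well apart at a log2 change of 1.51 (SE 0.19, adjusted p 0.000385). Fgf12 and Fgf13 were higher at 0.60 and 0.50, and Fgf14 stood at 0.29 (adjusted p 0.0927), called only without IP replicate 3 among the alternatives (adjusted p 0.0348). Stac2, an adaptor of L-type channels, had 184, 142 and 248 CPM in IP, against 84.2, 93.3 and 38.4 CPM in Input (log2 fold change 1.41, SE 0.33, adjusted p 0.00649, and 0.0651 with the block). The groups did not overlap, and the spread within each was wide.

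Pkd2, Pkd2l1, Tpcn1 and Tpcn2 of the list were lower and Mcoln1 was higher. Pkd2, the polycystin-2 gene, had 11.6, 9.20 and 8.56 CPM in IP, against 27.3, 26.2 and 28.4 CPM in Input (log2 fold change -1.48, SE 0.16, adjusted p 0.000162). Its Input libraries lay close together and above all IP libraries. Pkd2l1, known from neurons that contact the cerebrospinal fluid, had 0.239, 0.439 and 0.956 CPM in IP, against 2.16, 2.02 and 1.18 CPM in Input (log2 fold change -1.71, SE 0.56, adjusted p 0.0306), and lost its call when IP replicate 1 or 2, or Input replicate 1 or 2, was left out (adjusted p 0.0727 to 0.0979). Tpcn2, a lysosomal two-pore channel gene, had 0.0478, 0.415 and 0.233 CPM in IP, against 0.985, 1.40 and 1.26 CPM in Input (log2 fold change -2.38, SE 0.68, adjusted p 0.0169, and 0.0560 without Input replicate 2). Tpcn1 was lower too (-0.84, adjusted p 0.00112). The lysosomal gene Mcoln1 was higher (0.72, adjusted p 0.0480), and lost its call on leaving out any single library other than IP replicate 3 (adjusted p 0.0750 to 0.172). Its groups overlapped, with IP replicate 3 at 19.5 CPM and Input replicates 1 and 2 at 21.8 and 21.2 CPM.

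Long channel transcripts were set beside other long transcripts, since the log2 fold change of all genes varied with coding length. Over coding genes tested, the median log2 fold change was 0.42 for 4061 genes of up to 1000 bp, 0.09 for 5537 genes of 1000 to 2000 bp, -0.11 for 2427 genes of 2000 to 3000 bp, -0.25 for 1502 genes of 3000 to 5000 bp and -0.49 for 682 genes over 5000 bp. The 16 sodium and calcium channel pore genes were all over 5000 bp, with a median of -0.24 and 2 higher and 2 lower. In that length class 8.65% of all genes were higher and 50.7% lower. The 10 channel genes of up to 1000 bp, all auxiliary, had a median of 0.07, with 4 higher and 1 lower. Of all coding genes of up to 1000 bp, 45.5% were higher and 18.0% lower. Spearman's rho between coding length and log2 fold change was -0.27 over 14209 coding genes and -0.18 over the 55 channel genes, across genes that share the same 6 libraries. With each library's dependence on exon length removed through offsets, sodium channel genes gave 5 higher, and the count of lower channel genes was 5.

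**Figure D3:**
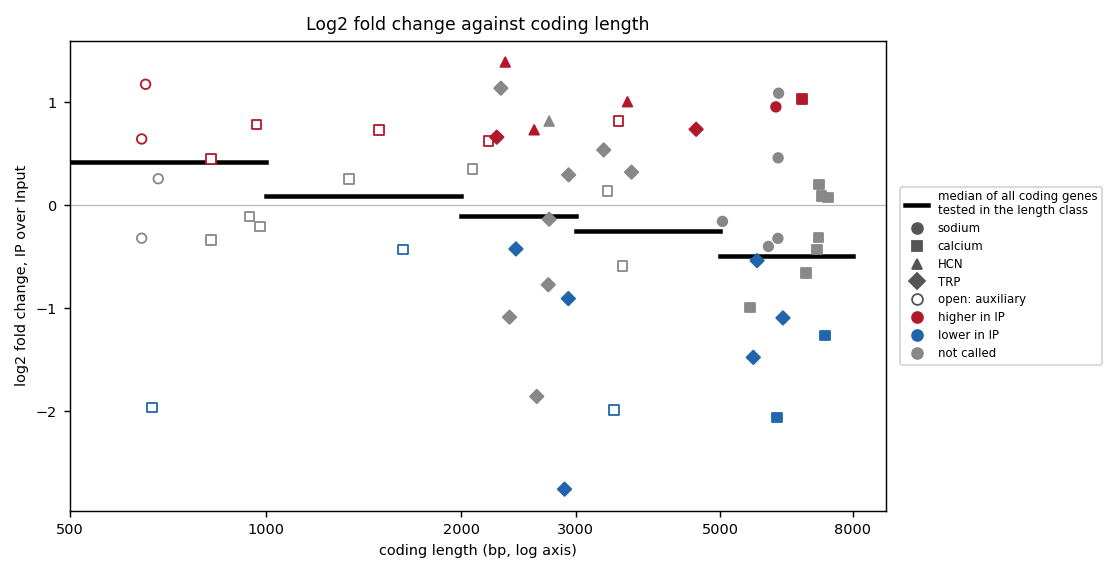
Log2 fold change (IP over Input) of the 55 tested channel genes against coding length in bp on a log axis, with shapes for the classes, open symbols for auxiliary subunits and black lines for the median of all coding genes in each length class. The black lines fall with length, from 0.42 to -0.49, and Scn1a and Cacna1i lie above the line of the longest class.

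Replicate 3 of the IP group was the lowest IP library for most channel genes, but not in every subfamily. IP replicate 3 was the lowest IP library for 37 of the 55 genes (67.3%), against 31.4% of all genes tested. On log2(CPM + 0.5), its median difference from the mean of the other 2 IP libraries was -0.39 over the 55 genes and 0.05 over all genes. Among the 16 sodium and calcium channel pore genes it was lowest for 14 (87.5%), with a median difference of -0.70. Auxiliary genes had a median difference of -0.10. By subfamily it was -0.82 for alpha2delta and -0.51 for TRPC genes, but -0.11 for HCN and -0.09 for TRPM genes. For calcium channel beta genes it was 0.09 and for sodium channel beta genes 0.007. The comparison with all genes was not matched by transcript length. Input replicate 3 was the lowest Input library for 24 of the 55 genes (43.6%), against 38.4% of all genes, with a median difference of -0.07. The cause was not tested.

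**Figure D4:**
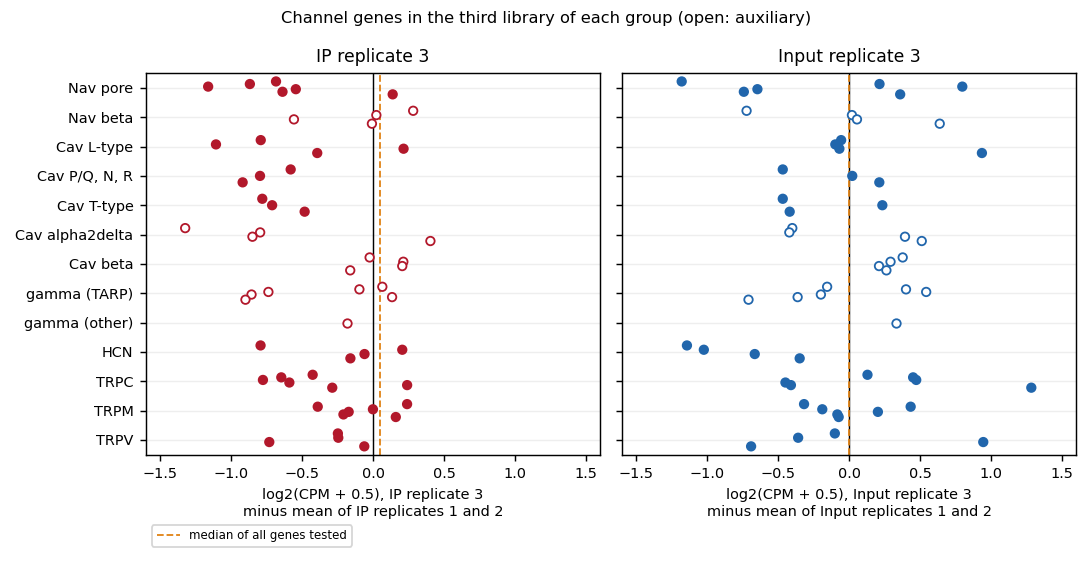
Difference in log2(CPM + 0.5) between replicate 3 and the mean of replicates 1 and 2 for each tested channel gene, by subfamily, in IP (left) and Input (right), with open symbols for auxiliary subunits. The dashed line is the median of all genes tested, at 0.05 in IP and 0.00 in Input. Most pore genes of sodium and calcium channels lie left of it in IP, with a median of -0.70.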

How the data were processed

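For 3 IP and 3 Input libraries the authors deposited un-normalized counts of reads for each gene symbol. Reads were aligned with STAR 2.0.0e to mm10 and counted with HTSeq, per the submitters' processing notes. No source used here gives the annotation or the strand setting. The summary lines of each file and an entry for unknown genes (at most 1 count) were left out. Ambiguous reads were 1.63% ± 0.0460 of all lines in IP and 9.35% ± 1.48 in Input, and alignments that were not unique 44.2% ± 0.402 in IP and 32.5% ± 0.596 in Input.

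Genes were filtered by filterByExpr using the groups (at least 10 counts, 15 in total), scaled by TMM and tested in edgeR 4.0.16 on R 4.3.3 (robust quasi-likelihood fit, two-sided). The test was checked on simulated data with known changes. The simulation gave every gene the same spread between libraries and changed far fewer genes than were called here. It does not cover the spread of these libraries. An SE is the size of the log2 fold change over the square root of F. CPM use TMM-scaled totals. Alternatives included DESeq2 1.42.0, other scalings and filters, leaving out libraries, and a length adjustment (lowess of each library's deviations on exon length, span 0.3, available for 87.6% of genes and all 55 tested members) chosen after seeing the data. Positions and lengths are from GENCODE M21 (GRCm38, the same build as mm10), and promoters from RefSeq. Tables and figures used Python 3.11.15, pandas 2.3.3 and matplotlib 3.10.9. The level equal to 3 counts covers counting error only, whereas an SE also includes the spread between libraries.

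Named genes were called members with a log2 change of at least 1 in size and the member with the highest mean of each subfamily, and others were named after their values were seen. The values of 4 channel genes are in the counts and medians and are not reported one by one here. Channel genes and all lists were chosen with earlier results of these data known. The labels give same-numbered libraries a common lane (6, 3 and 1), and pairing by replicate number rests on that sequencing lane. Deviations of same-numbered libraries correlated at 0.15, 0.07 and 0.05, and those of differently numbered libraries at -0.11 to 0.02. No replicate pair agreed within sampling noise (chi-square per degree of freedom 27.2 to 85.0).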

Additional observations from a re-analysis of the deposited data

How the results depend on the processing

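Of the 25 called channel genes, 12 were called in the same direction in all 15 alternative fits (8 higher, 4 lower), and no called gene reversed. At a threshold of 0.01, 9 genes were higher and 5 lower, with 2 calcium channel genes lower, 1 TRP gene higher and 3 lower, 4 pore genes higher and 4 lower, and 1 auxiliary gene lower. With the length adjustment, 5 genes were lower, 3 of them calcium channel genes, 2 TRP genes and 3 pore genes, and 5 sodium channel genes were higher. Upper-quartile scaling gave 8 lower calcium channel, 2 lower sodium channel and 5 lower auxiliary genes, and library totals 1 lower sodium channel gene. A minimum count of 50, or no filter, gave 3 lower calcium channel genes. Without IP replicate 2 and Input replicate 3 together, 7 genes were lower, TRP genes gave 0 higher and 3 lower, pore genes 4 higher and 5 lower, and the auxiliary median was -0.02. Leaving out 1 library gave 6 to 10 lower genes, 3 to 5 lower calcium channel genes, 2 to 5 higher and 0 to 1 lower sodium channel genes, 2 to 3 higher and 3 to 6 lower TRP genes, 5 to 10 higher and 4 to 7 lower pore genes, a sodium median of 0.085 to 0.37 and an auxiliary median of -0.020 to 0.37. Over all genes, those fits gave 3721 to 4384 higher and 4164 to 4783 lower. Per coding length, the shares within families were 22.3% in IP and 23.5% in Input for Hcn2, 54.0% in IP and 70.9% in Input for Cacnb4, 48.1% in IP and 32.5% in Input for Cacna2d2, and 42.8% in IP and 40.0% in Input for Cacng7. Per exon length Cacng7 took 52.8% in IP and 48.2% in Input. With same-numbered libraries as a replicate block, 16 genes were higher and 10 lower, and the block added 5 calls and lost 4, given with the genes where reported, and changed no other call. The causes were not tested. Genes under about 1 CPM rest on few reads, which limits their precision.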
